A study of Arabidopsis thaliana with 2 samples.

Results

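The array's annotation names 3592 genes of Arabidopsis thaliana by a probe set. The 5 genes described here are grouped as phenylpropanoid and phenolic modifying enzymes, and what they act on was not tested. They are the methyltransferases AT1G67980 (symbol CCOAMT) and AT4G35160, the glucosyltransferases UGT72E1 (AT3G50740) and UGT84A3 (AT4G15490), and AT1G75280, an isoflavone reductase-like protein. Each has 1 probe set, found by matching the annotation to the gene, and none of the 5 probe sets carries the suffix that marks shared or similar sequence. The genes were picked with their signals on these arrays already known, so the values below are a description and carry no test.

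The study is titled as a search for the actions of nitric oxide, a gaseous signalling molecule of plants. Rosette leaves of Col-0 plants at growth stage 3.5 were compared on 2 Affymetrix arrays, each with 8297 probe sets: the sample coded NOT had 1 array, and so did the sample coded WDC. Plants of both groups grew on compost at 22 °C in continuous light after 1 week of cold at 4 °C, and a treatment label, given with the NOT sample but worded for every sample, describes a pool of 4 experiments with about 8 leaves in each. The extraction label mentions seedlings where the tissue label has rosette leaves, a discrepancy that cannot be settled here. The labels do not say what NOT and WDC stand for, and give neither an agent nor a dose, so no array is called treated and every ratio is NOT over WDC. There are no replicates, and having 1 array per group limits how precise any value can be.

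Phenylpropanoids are made from phenylalanine by way of cinnamic acid and its hydroxylated derivatives. In leaves they feed lignin, the sinapate esters that screen ultraviolet light, flavonoids, coumarins and defence compounds. Enzymes late in these routes decorate the phenolic ring or side chain. O-methyltransferases move a methyl group from S-adenosylmethionine to a hydroxyl group, UDP-glucosyltransferases (UGT) attach glucose to a hydroxyl or carboxyl group and so make soluble storage forms, and reductases of the isoflavone reductase type use NADPH.

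The 5 enzymes did not share a direction. UGT72E1 and AT1G67980 had higher signals in NOT, AT4G35160 was above the signal floor in NOT alone, AT1G75280 was lower in NOT by the widest margin of the 5, and UGT84A3 was slightly lower. The floor, a signal of 12.5, is the 40th percentile of the values of both arrays without control probe sets, and 4 of the 5 genes lay above it on both arrays. By a 2-fold rule 2 of these 4 were higher in NOT, where 1.41% of all 4753 probe sets above the floor on both arrays were, and 1 was lower, where 3.32% were. In numbers these were 67 higher and 158 lower probe sets, or 103 and 123 when the arrays were scaled to the spiked-in controls and 94 and 130 when scaled to their medians. Since the contrast entered the choice of the genes, these shares are given as background and nothing is read from them. The log2 ratios of the 4 genes ran from -2.26 to 1.51, with a median of 0.35, while the median over all 4753 probe sets was 0.00 and their central 95% lay between -1.13 and 0.82. In whole leaves, a smaller share of cells that make a transcript and less transcript per cell cannot be told apart.

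**Figure D1:**
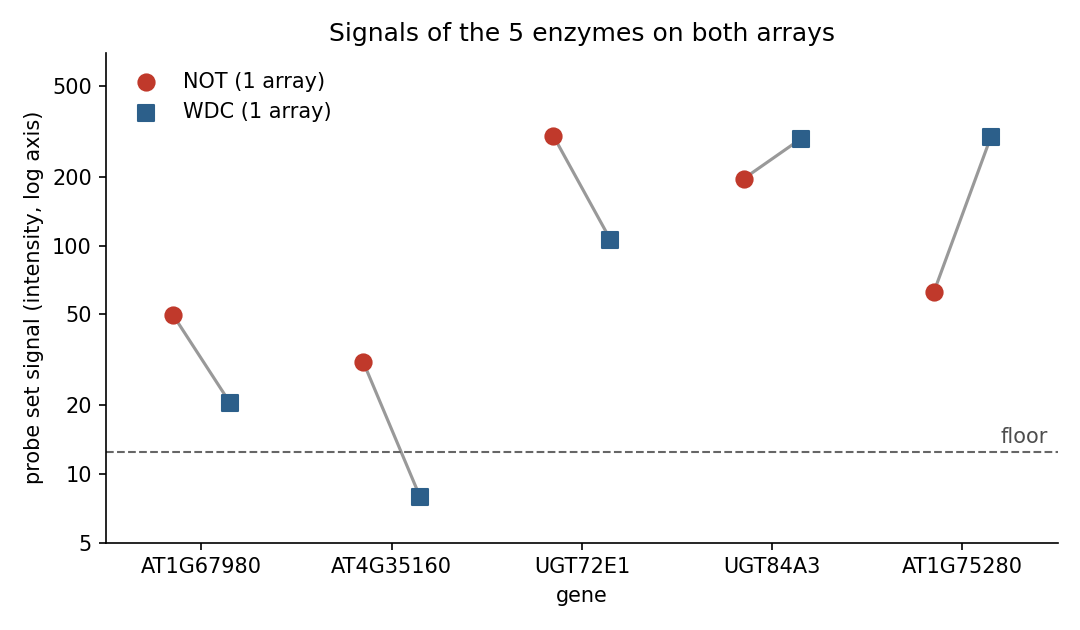
Signals of the 5 enzymes (log axis, arbitrary intensity units) on the NOT array (circles, left of each pair) and the WDC array (squares), with 1 array per group and the floor of 12.5 as a dashed line. The lines slope down for AT1G67980, AT4G35160 and UGT72E1 and up for UGT84A3 and AT1G75280, and the WDC signal of AT4G35160 (7.9) is the only point under the floor.

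AT1G67980 encodes a methyltransferase of the caffeoyl-CoA type, the class that methylates caffeoyl-CoA on the way to guaiacyl lignin units. Its signal was 49.8 in NOT against 20.5 in WDC, 2.43-fold higher in NOT (log2 ratio 1.28). The WDC signal was 1.64 times the floor, and with 12.5 added to both signals the gene was 1.89-fold higher, short of the 2-fold rule. Among all probe sets above the floor on both arrays this ratio ranked 26 from the highest. It belonged to the dimmest of 4 equal classes by mean signal, in which 0.673% of 1189 probe sets were at least 2-fold higher in NOT.

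AT4G35160 is an O-methyltransferase that has been described in Arabidopsis as an N-acetylserotonin O-methyltransferase of melatonin synthesis. Its signal was 31.0 in NOT against 7.9 in WDC. As the WDC value lay under the floor, only a bound can be given, at least 2.48-fold higher in NOT, taken as the NOT signal over the floor. Of 141 probe sets above the floor in NOT alone, 8.51% had a bound of 2-fold or more. With the WDC signal taken as it stands, above a floor at the 25th percentile, the ratio was 3.92-fold, and with 12.5 added to both signals it was 2.13-fold. The size of the fold thus differed with how the WDC signal under the floor was handled.

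UGT72E1 glucosylates coniferyl and sinapyl aldehydes, the aldehyde forms of the lignin monomers. Its signal was 303.0 in NOT against 106.3 in WDC, 2.85-fold higher in NOT (log2 ratio 1.51), and both values stood well clear of the floor, at 24.2 and 8.50 times it. This was the highest log2 ratio of the 4 enzymes that had one, and it ranked 17 from the highest over all probe sets above the floor on both arrays. In its class by mean signal, the third of 4, 1.85% of 1188 probe sets were at least 2-fold higher in NOT.

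UGT84A3 makes glucose esters of hydroxycinnamic acids such as ferulic and sinapic acid. Its signal was 196.7 in NOT against 294.1 in WDC, a log2 ratio of -0.58, which is 1.495-fold lower in NOT and so just short of a 1.5-fold rule (1.53-fold and past it with loess). Of all probe sets above the floor on both arrays, 85.4% lay within 1.5-fold, 8.73% were at least 1.5-fold lower and 5.87% at least 1.5-fold higher. Among the 93 genes measured by several probe sets, the log2 ratios of probe sets of one gene had an SD of 0.20 around their mean. This SD measures probe noise on the same 2 arrays only, and leaves out differences between arrays, between pools and between plants. The log2 ratio of UGT84A3 lay 2.95 such SDs below 0, whereas that of AT1G75280 lay 11.5 of them below. These multiples only set the ratios beside probe noise and are not a test.

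AT1G75280 is named for its similarity to isoflavone reductase, an enzyme of phytoalexin synthesis in legumes. Its signal was 62.7 in NOT against 300.3 in WDC, 4.79-fold lower in NOT (log2 ratio -2.26), with the NOT value at 5.02 times the floor. It ranked 26 from the lowest of the 4753 probe sets. In its class by mean signal, the third of 4 like that of UGT72E1, 4.29% were at least 2-fold lower in NOT. The difference in log2 ratio between UGT72E1 and AT1G75280 was 3.77, and that between UGT72E1 and UGT84A3, both glucosyltransferases, was 2.09.

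**Figure D2:**
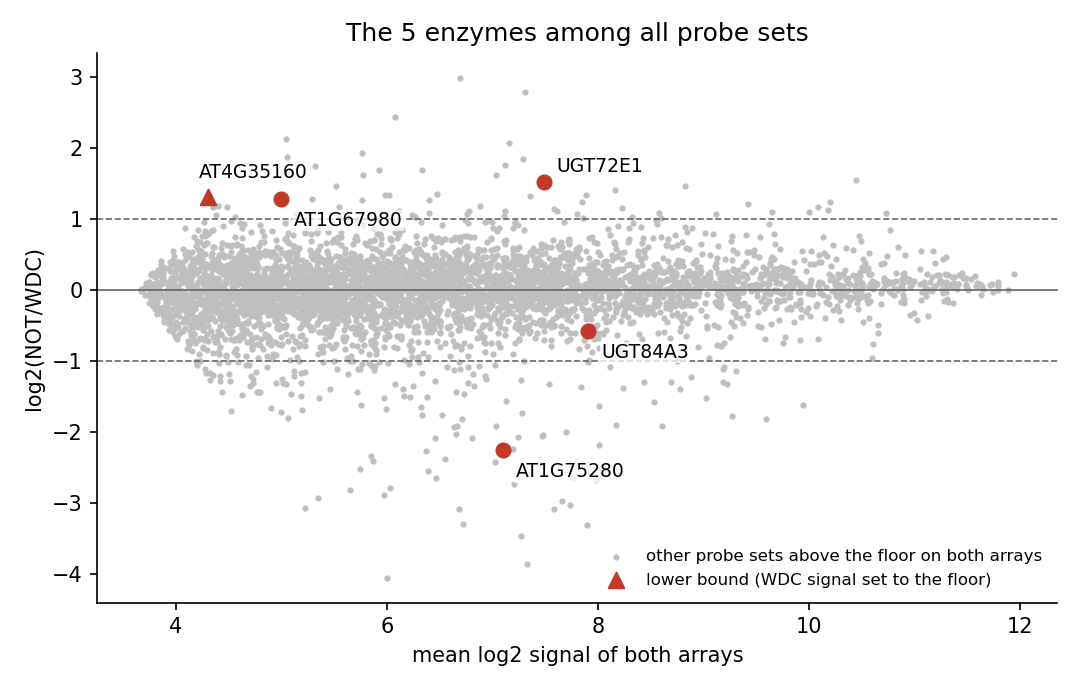
Log2 ratio of NOT over WDC against the mean log2 signal for the 4753 probe sets above the floor on both arrays (grey), with the enzymes in red and dashed lines at 2-fold. UGT72E1 (1.51) and AT1G67980 (1.28) lie above the upper line, AT1G75280 (-2.26) lies among the scattered low points, UGT84A3 (-0.58) lies between 0 and the lower line, and the triangle for AT4G35160 is a lower bound of 1.31 with the WDC signal set to the floor.

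Relatives of the enzymes were looked up in 12 lists of phenylpropanoid genes by locus, 148 genes in all. Outside the 5 enzymes 16 of the other 143 had a named probe set and 5 of these lay above the floor on both arrays. No gene of the general phenylpropanoid and monolignol list (28 genes, from phenylalanine ammonia-lyase to cinnamyl alcohol dehydrogenase), of the sinapate ester acyltransferases (6 genes) or of the regulators (16 genes) had a named probe set in the annotation used here. The enzymes that act before and after the 5 genes in these routes were therefore almost entirely not analysed here.

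In the UGT72 family 4 of 9 listed genes had a named probe set and 2 were above the floor on both arrays. GT72B1 (AT4G01070, UGT72B1), which can glucosylate monolignols and chlorinated phenols, gave 196.3 in NOT against 219.8 in WDC, a log2 ratio of -0.16 against 1.51 for UGT72E1. UGT72E3, a close relative of UGT72E1 that acts on the monolignols, gave 1.4 in NOT against 1.3 in WDC, and AT4G36770 gave 1.7 in NOT against 3.3 in WDC. Both were under the floor on both arrays, so no ratio is given for them.

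In the UGT84 family 5 of 6 listed genes had a named probe set and 2 were above the floor on both arrays, neither past 1.5-fold as deposited (UGT84A3 passed it with loess). UGT84A4, the next gene after UGT84A3 in chromosome order and also a hydroxycinnamate glucosyltransferase, gave 31.6 in NOT against 40.2 in WDC, a log2 ratio of -0.35. UGT84A1, the gene before it and of the same kind, gave 2.3 in NOT against 10.4 in WDC, under the floor on both arrays. UGT84B1, an enzyme that glucosylates the auxin indole-3-acetic acid, gave 8.4 in NOT against 7.7 in WDC, and UGT84B2 gave 2.7 in NOT against 2.5 in WDC. The 2 measured UGT84 genes thus lay within 1.5-fold as deposited, where 85.4% of all probe sets above the floor on both arrays did. UGT84A3 was picked with its ratio known, and without it UGT84A4 was the only measured gene. The other 3 were too dim to compare, so no direction is read for the family.

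A wider UGT list took genes whose symbol begins with UGT and a digit, and those of the UGT72 list. UGT genes carried under other symbols would be missed. The list was drawn up after the values had been seen. Of its 22 named genes 12 were above the floor on both arrays. Of these 1 was at least 1.5-fold higher in NOT (UGT72E1), where 5.87% of all 4753 probe sets were. Another 2 were at least 1.5-fold lower, where 8.73% were. Without UGT72E1 and UGT84A3, which were picked with their ratios known, 10 were measured. None of these was at least 1.5-fold higher, 2 were lower and 8 lay within 1.5-fold. The median log2 ratio of the 12 was -0.10 (0.01 with median scaling and 0.04 with control scaling), beside 0.00 over all probe sets. The lower ones were UGT73B1, known for glucosylating flavonoids, with 54.4 in NOT against 231.7 in WDC (log2 ratio -2.09), and UGT74D1, which can act on auxins, with 19.9 in NOT against 34.9 in WDC (-0.81, which is -0.55 and within 1.5-fold when 12.5 is added to both signals). UGT73C1 was above the floor in WDC alone, with 2.1 in NOT against 55.8 in WDC, at least 4.46-fold lower in NOT. After UGT72E1 the next highest log2 ratios were 0.42 for UGT74B1, an enzyme of glucosinolate synthesis, and 0.40 for UGT85A2. The remaining 7 measured genes, GT72B1 and both UGT84 genes among them, ran from UGT84A3 at -0.58 to UGT71C2 at 0.11.

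**Figure D3:**
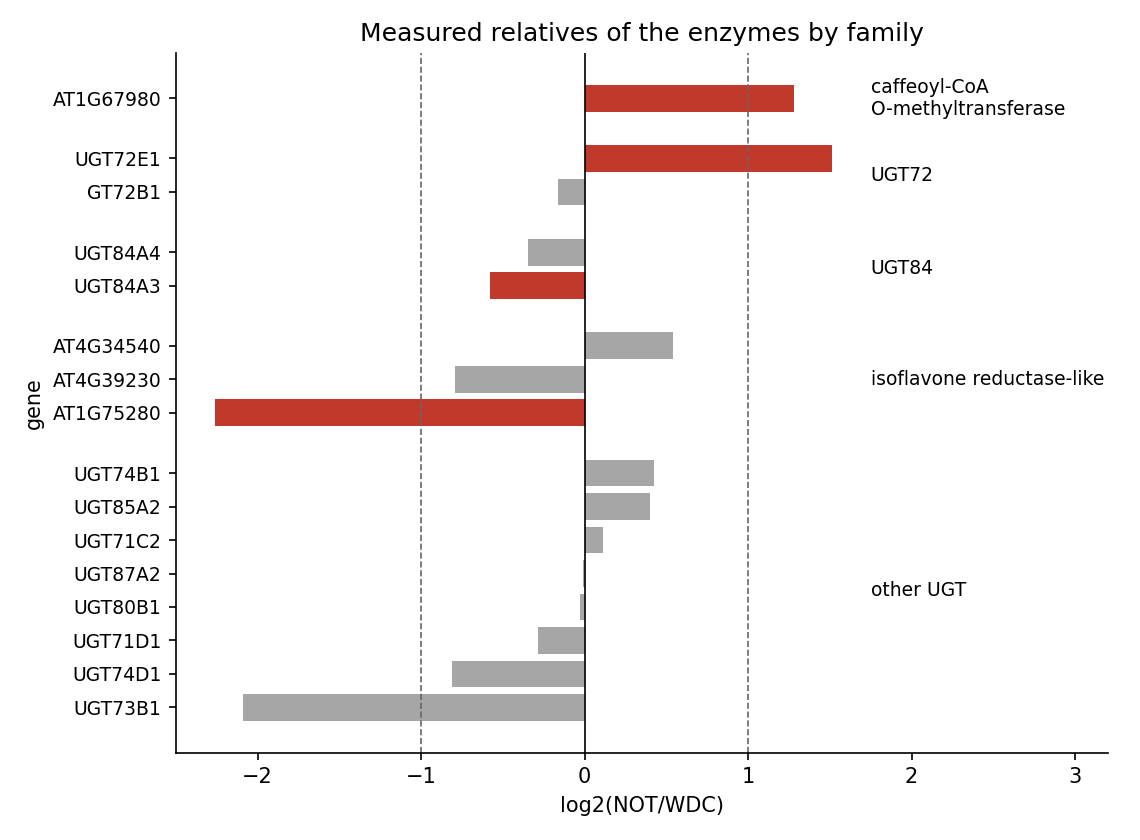
Log2 ratio of NOT over WDC for the enzymes (red) and for their relatives above the floor on both arrays (grey), by family, with dashed lines at 2-fold. UGT72E1 (1.51) has a longer bar than any other UGT gene on the higher side, UGT73B1 (-2.09) on the lower side, and AT1G75280 (-2.26) has the longest bar in the plot.

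The family of isoflavone reductase-like proteins and pinoresinol reductases had 3 of 8 listed genes named, all above the floor on both arrays. AT4G39230, which encodes a phenylcoumaran benzylic ether reductase, an enzyme acting on lignan-type dimers, gave 28.3 in NOT against 49.1 in WDC, 1.74-fold lower in NOT (log2 ratio -0.79). AT4G34540, another member of this family, gave 18.9 in NOT against 13.0 in WDC, which put its log2 ratio at 0.54 and within 1.5-fold (0.61 and past it, at 1.52-fold, with loess), on a WDC signal only just above the floor. Without AT1G75280 the family thus had 1 gene at least 1.5-fold lower, where 8.73% of all probe sets above the floor on both arrays were, none at least 1.5-fold higher (5.87%) and 1 within 1.5-fold (85.4%). With loess AT4G34540 counts as higher in place of within. AT1G75290 and AT1G75300, relatives that follow AT1G75280 directly in chromosome order, had no named probe set here, and whether their transcripts contribute to its signal was not tested.

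AT4G35150, the gene directly before AT4G35160 and its close relative, gave 0.5 in NOT against 4.9 in WDC, both under the floor. In the caffeoyl-CoA O-methyltransferase list AT1G67980 was the only one of 7 genes with a named probe set. TSM1, the gene after it and a tapetum-specific methyltransferase, had none here.

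Other routes of phenolic metabolism were hardly covered. The shikimate enzyme AT2G45300, a 5-enolpyruvylshikimate 3-phosphate synthase upstream of phenylalanine, gave 368.0 in NOT against 470.5 in WDC (log2 ratio -0.35), and its second probe set gave 134.4 in NOT against 144.8 in WDC (-0.11). Both of these probe sets carry a mark for shared or incomplete probes. The anthocyanin enzyme DFR gave 3.1 in NOT against 0.2 in WDC and the proanthocyanidin enzyme BAN 0.4 in both, under the floor. The peroxidase AT5G66390 gave 7.3 in NOT against 4.7 in WDC, and the root beta-glucosidase BGLU21 gave 1.0 in NOT against 1.1 in WDC, also under the floor. The AT5G66390 probe set carries a mark for shared sequence.

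Genes next to the enzymes in chromosome order gave few values. Of 20 protein-coding neighbours, 2 on each side of each gene, 5 had a named probe set and 3 were above the floor on both arrays. Beside UGT84A4 these were AT4G15475, with 33.6 in NOT against 30.7 in WDC (log2 ratio 0.13), and AT4G35140, with 24.2 in NOT against 21.4 in WDC (0.18). None of the 3 was past 1.5-fold, and 85.4% of all probe sets above the floor on both arrays lay within it. Nothing is therefore read from these neighbours.

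For each enzyme with a ratio, the named genes most like it over the 2 arrays were found among 1934 genes above the floor on both. By log2 ratio the nearest to UGT72E1 were the chitinase CHI at 1.46 and AT4G24340 at 1.62, and the nearest to AT1G67980 were AT1G10690 at 1.28 and the chitinase ChiC at 1.26. The nearest to UGT84A3 were AT1G23150 and AT4G23040, both at -0.58, and the nearest to AT1G75280 were AT1G05340 at -2.18 and AT1G24140, a matrix metalloproteinase, at -2.42. Likeness in the log2 signals of both arrays was closest for UGT84A3, with the glutathione reductase GR1 at a Euclidean distance of 0.053 and AT5G25940 at 0.073. AT1G75280 lay nearest to AT2G32200 (distance 0.16) and UGT73B1 (0.43), AT1G67980 to OASA2 (0.31) and AT4G02360 (0.35), and UGT72E1 to GPT and ATPMEPCRB (both 0.54). The probe sets of AT4G24340 and GPT carry a mark for shared or incomplete probes. With 2 arrays, likeness of this kind covers 1 ratio, or 2 signals in the case of the distances, and says nothing more.

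Markers of the tissue were checked as far as the annotation names them. Of 12 photosynthesis genes listed as leaf markers 3 were named, and all were above the floor on both arrays, the Rubisco activase RCA with 2469 in NOT against 2442 in WDC, the photosystem I subunit PSAN with 1139 in NOT against 1335 in WDC and the Calvin cycle enzyme SBPASE with 304.1 in NOT against 374.6 in WDC. Their log2 ratios ran from -0.30 to 0.02, the highest being that of RCA, whose probe set carries a mark for shared sequence. Of 5 root markers only BGLU21 was named and it was under the floor on both arrays, and none of 6 markers of lignifying vasculature was named, so the part of vascular tissue in the signals of the enzymes was not tested.

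**Figure D4:**
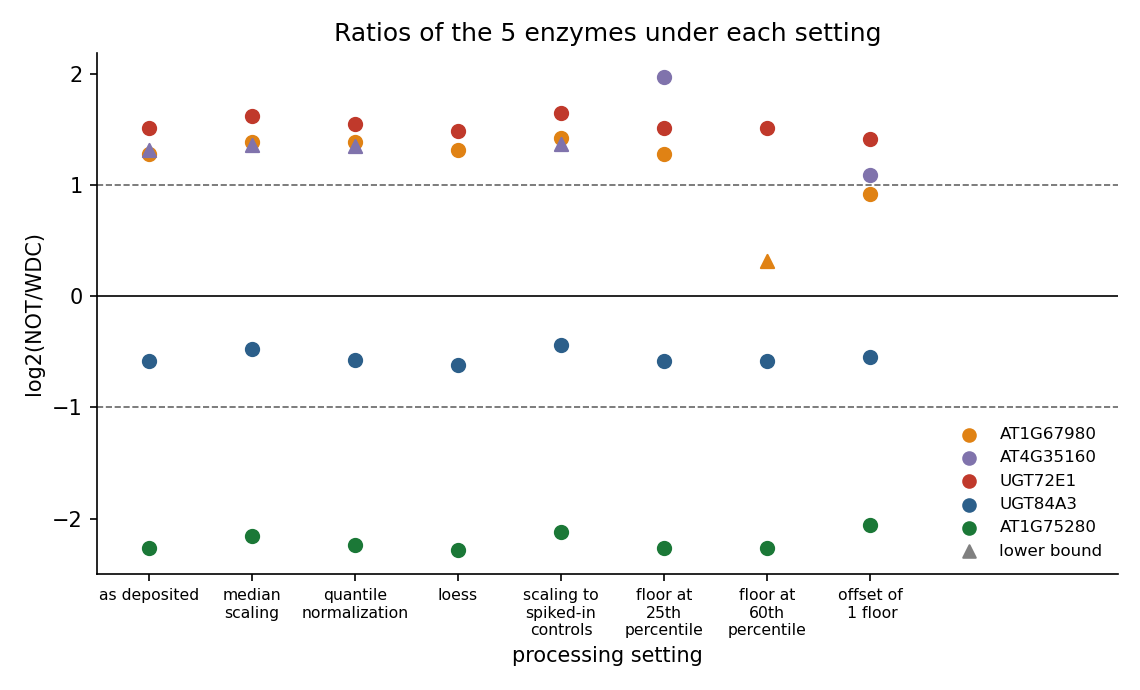
Log2 ratio of NOT over WDC for the 5 enzymes under the values as deposited and 7 other processing settings, with triangles for lower bounds and dashed lines at 2-fold. No enzyme crosses 0, and AT1G67980 drops under the upper line with an offset of 1 floor (0.92) and, as a bound, with the floor at the 60th percentile (0.31). AT4G35160 has no value there or with loess.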

How the data were processed

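Each deposited value is the linear intensity of 1 probe set on 1 array, and the file holds no detection calls. The authors' scaling was recognised from the deposited intensities alone: once the top and bottom 2% were removed, each array averaged 100.1. The sources used here do not name the summarising software. Per the labels, scanner noise averaged 2.38 in NOT and 2.67 in WDC.

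The 50 control probe sets among the 8297 were dropped. Of the others 3794 named 1 gene, 70 several and 4383 none in the annotation used, and 3784 were matched by Entrez ID to a RefSeq gene table (TAIR10.1), from which names and the order of genes were taken. Log2 ratios were taken without an offset where both signals exceeded the floor (4753 probe sets). A further 141 and 242 lay above it in NOT and in WDC alone, and 3111 on neither. Where several probe sets named one gene, the brightest was used.

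The enzymes, the lists and the rules for naming genes were chosen with earlier results of these data known. Named are the enzymes, list genes with a named probe set, neighbours in gene order and the most similar genes. One list is not reported here by its genes. No test was run, with 1 array per group. Python 3.11.15, numpy 2.4.6, pandas 2.3.3, statsmodels 0.14.6 (loess, span 0.4) and matplotlib 3.10.9 were used. The counting rule was run on simulated data, with changes larger than the rule put only on probe sets far above the floor. That check of the code does not cover dim signals. Alternatives were other scalings, floors, an offset, fold rules, averaging the probe sets that name one gene, and leaving out probe sets with shared sequence.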

Additional observations from a re-analysis of the deposited data

How the results depend on the processing

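Every enzyme kept its direction under each alternative that gave a value. UGT72E1 ranged from 1.41 to 1.65 on the log2 scale, UGT84A3 from -0.62 (1.53-fold lower, with loess) to -0.44, and AT1G75280 from -2.28 to -2.06, the last with an offset of 1 floor (12.5). Of 33 ratios and bounds of the enzymes, 28 moved by less than the SD of 0.20 among probe sets of a gene. Many of these were fixed by construction. A changed floor leaves a ratio above it as it was, and median and control scaling shift every ratio by less than this SD. The count is therefore no measure of how robust the ratios are. The offset moved AT1G67980 to 0.92 (1.89-fold) and AT4G35160 to 1.09, the floor at the 25th percentile (4.3) gave AT4G35160 a ratio of 1.97, and the floor at the 60th (40.1) left AT1G67980 a bound of 0.31 and AT4G35160 no value. Higher enzymes past 2-fold thus numbered 3 of 5 with the 25th percentile floor, beside 106 of 5892 probe sets. They numbered 1 of 3 with the 60th (beside 43 of 3113) and 1 of 4 with the offset (43 of 4753). By a 3-fold rule they numbered 0 of 4 (15 of 4753), against 2 of 4 (67 of 4753). Lower probe sets numbered 242, 81, 94 and 56 in this order, against 158. By a 1.5-fold rule 279 of 4753 were higher and 415 lower. These differences arise by construction of the floor, offset or rule. Scaling to the spiked-in controls (a log2 shift of 0.14) gave 103 and 123 of 4744, and median scaling (0.11) 94 and 130 of 4747. The share of lower calls was thus 54.4% and 58.0%, against 70.2% as deposited, 65.3% with quantile normalization and 69.9% with loess. Without probe sets marked for shared sequence it was 71.2% (49 higher and 121 lower of 3561 above a floor of 10.6). The isoflavone reductase-like family had a median of -0.79 over 3 genes with AT1G75280 included, and of -0.13 over the 2 others. With AT1G75280 it stood at -1.42, -1.47 and -1.39 with median, quantile and control scaling, where AT4G34540 fell under the floor. It stood at -0.59 with the offset, and the 60th percentile floor left AT1G75280 alone, at -2.26. By a 2-fold rule 1 of its genes was lower in place of 2, as in the UGT list. AT1G75280 was picked with its ratio known, so nothing is read from medians that include it. The UGT median of -0.10 was 0.01 with median scaling and 0.04 with control scaling. Signal over the floor limits AT1G67980 and AT4G35160. No paired analysis was possible because each group has 1 array.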
